A study of Mus musculus with 30 samples.

Results

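The 10 genes described here handle iron in the cell: the exporter Slc40a1, the uptake and transport genes Tfrc, Slc11a2, Slc11a1 and Steap3, the storage genes Fth1, Ftl1 and Ncoa4, and the regulators Aco1 and Ireb2. They were taken by symbol from a table of estimated read counts, in which all 10 were found among 21841 genes, and all 10 passed the filter on low counts that left 13663 genes for testing. The RNA came from whole mammary tumors of MMTV-PyMT mice (FVB/N-Tg(MMTV-PyVT)634Mul/J, further labelled WT), in which the MMTV promoter drives the polyoma virus middle T antigen in mammary epithelium, so that tumors arise spontaneously. The 6 groups of 5 tumors received Vehicle, 5-FU (5-fluorouracil, a thymidylate synthase inhibitor), Gemcitabine (a nucleoside analog), KCL-HO-1i, or KCL-HO-1i with 1 of the chemotherapies (KCL-HO-1i/gemcitabine and, with the other, KCL-HO-1i/5-FU), by intraperitoneal injection. KCL-HO-1i is a tin phosphate salt of a metalloporphyrin that inhibits heme oxygenase-1 (HO-1), the enzyme made from Hmox1. Per the labels, treatment lasted 72 h, with gemcitabine at 64 mg/kg per 7 days, 5-FU at 40 mg/kg per 4 days and a daily 25 µmol/kg of the HO-1 inhibitor, whereas the study's text has a shorter treatment and less gemcitabine. Neither the age of the mice nor the cell makeup of each RNA sample was given with the labels, and in RNA of whole tumors fewer cells of a type and less RNA per cell cannot be told apart.

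Iron enters most cells bound to transferrin through the transferrin receptor, is reduced in the endosome and passes into the cytosol through a divalent metal transporter. What is not used is held inside the ferritin shell, which is built of heavy and light chains, or leaves the cell through ferroportin, the protein made from Slc40a1. Macrophages that take up red cells recover iron from heme through HO-1 and return it to the blood through ferroportin, so the target of KCL-HO-1i comes before ferroportin in that route. In tumors, macrophages are known both to store and to release iron.

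Much of this control acts on the RNA itself. Iron-regulatory proteins, made from Aco1 and Ireb2, bind a short hairpin called the iron-responsive element when iron is scarce. A hairpin before the coding region then blocks translation of the exporter and the ferritins, whereas hairpins after the coding region protect the Tfrc mRNA from decay. The hairpins are shown because an mRNA level reads these genes differently: a Tfrc level can follow the second kind of control, and a translational block leaves an mRNA level as it is. A search of 1 principal transcript per gene for the classic form (5 bases, a bulged C, 5 bases paired with 5 others around the loop CAGTGN) found 7 hairpins in 4 of the 10 genes. Each is printed from its 5′ end, as DNA of the transcribed strand, with the bulged C and the loop in capitals, from the GENCODE transcripts of mouse build GRCm38.
Slc40a1, 5′ untranslated region, chr1:45925466-45925492, minus strand: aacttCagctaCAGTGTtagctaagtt
Fth1, 5′ untranslated region, chr19:9982733-9982759, plus strand: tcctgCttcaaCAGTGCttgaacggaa
Ftl1, 5′ untranslated region, chr7:45459780-45459806, minus strand: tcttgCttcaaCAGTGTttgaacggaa
Tfrc, 3′ untranslated region, chr16:32631220-32631246, plus strand: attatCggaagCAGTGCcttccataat
Tfrc, 3′ untranslated region, chr16:32631599-32631625, plus strand: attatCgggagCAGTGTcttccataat
Tfrc, 3′ untranslated region, chr16:32631664-32631690, plus strand: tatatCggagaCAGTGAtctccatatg
Tfrc, 3′ untranslated region, chr16:32631711-32631737, plus strand: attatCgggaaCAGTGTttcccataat
The loop begins with the same 5 letters in all 7 because the search asked for it. The same search found a hairpin in the 5′ untranslated region of 20 of 21877 genes (0.0914%) and in the 3′ untranslated region of 111 (0.507%). For Slc11a2, Slc11a1, Steap3, Ncoa4, Aco1 and Ireb2, it says only that this form is not in the transcript searched.

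The genes differed widely in level. In counts per 1000000 counts of the library (CPM) and per kilobase of the principal transcript, the vehicle mean was 1210 for Ftl1 and 1148 for Fth1, against 41.7 for Aco1, 40.3 for Tfrc, 33.1 for Ncoa4 and 24.6 for Ireb2. The transporters were lower, at 11.1 for Slc11a2 and 7.61 for Steap3, and the lowest were Slc40a1 at 3.92 and Slc11a1 at 1.55. Each value depends on the length of the transcript chosen, so the order of Ftl1 and Fth1 is not settled here. Fth1 and Ftl1 have near-identical copies elsewhere in the genome, and the table holds 1 of them, Ftl1-ps1, with 64.7 to 283 counts per library, so some ferritin reads may be assigned to the wrong copy. The depth behind each gene also differed. Slc11a1 had 14 to 444 counts per library and Slc40a1 92.9 to 2843, whereas Fth1 had at least 9016, so counting error was largest for Slc11a1. Total counts per library ran from 10067577 to 13622264. In these genes 2 tumors stood apart from their groups: replicate 3 of the 5-FU combination, with very high Slc40a1, Slc11a1 and ferritin levels, and vehicle replicate 3, which had the lowest Slc40a1 and Slc11a1 and the highest Tfrc, Steap3 and Ireb2 of all 30.

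The genes also differed in how far they varied. Across all 30 libraries the highest CPM was 31.8 times the lowest for Slc11a1, 30.6 times for Slc40a1, 14.4 times for Steap3, 12.5 times for Tfrc and 10.9 times for Fth1. Ftl1 varied less (3.61 times), followed by Slc11a2 (2.32), Aco1 (2.03), Ncoa4 (1.62) and Ireb2 (1.54). Much of the spread of Steap3 lay within groups, where the SD of log2 CPM was 0.92 against 0.86 over all libraries. For Slc40a1 and Slc11a1 it was 0.67 and 0.79 within groups against 0.95 and 1.18 over all libraries.

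**Figure D1:**
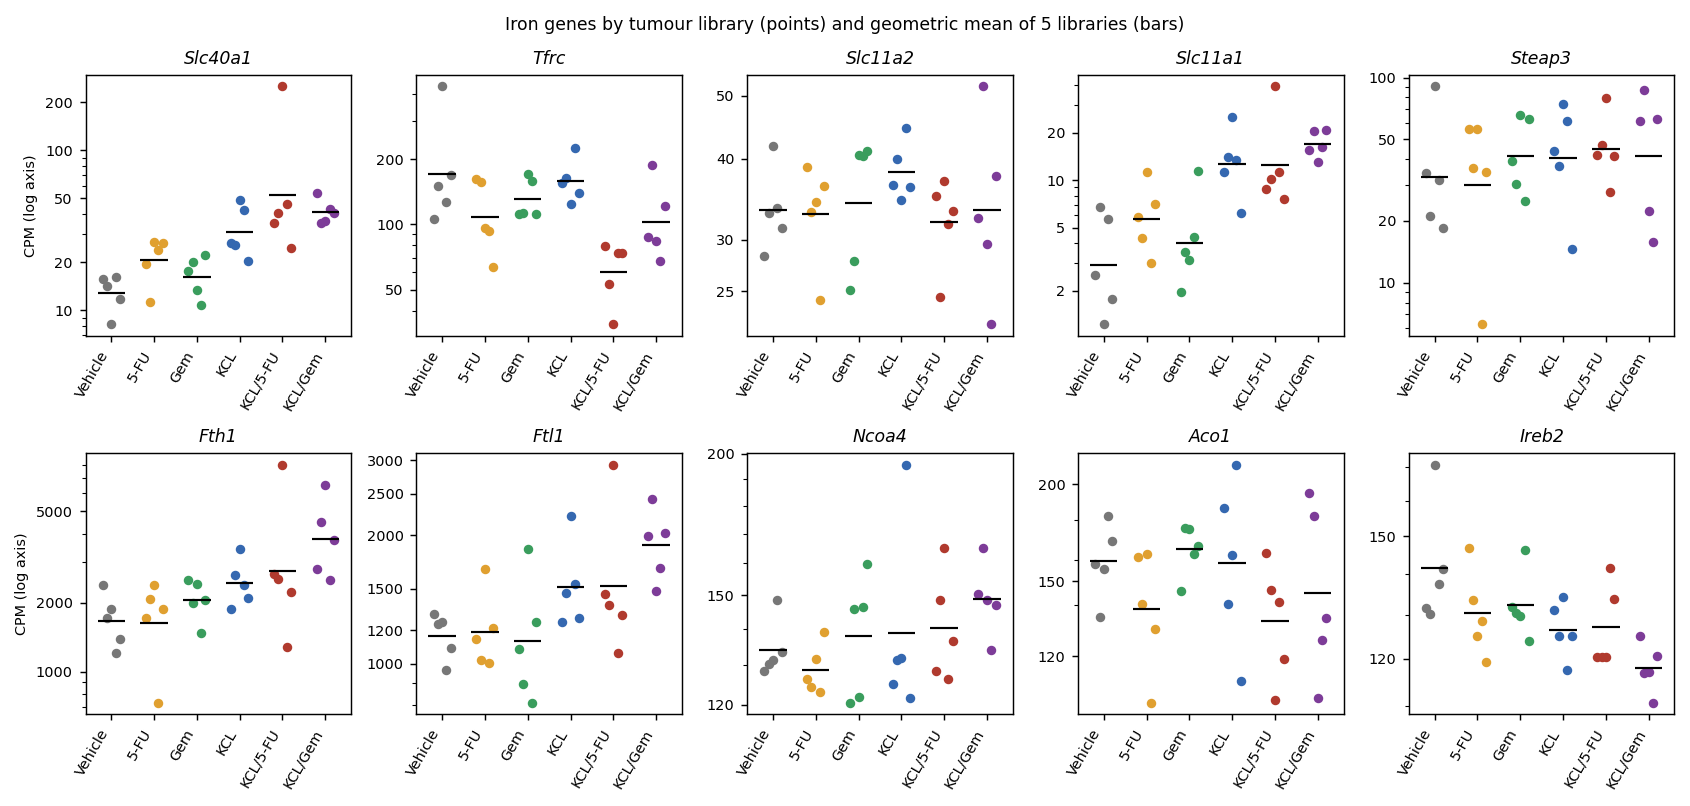
CPM (log axis) of the 10 iron genes in each tumor library by treatment group, with 5 points a group and the geometric mean of the group as a bar (KCL, KCL-HO-1i; Gem, gemcitabine). For Slc40a1 and Slc11a1 each of the 15 libraries with KCL-HO-1i exceeded the mean log2 CPM of its own background, and KCL-HO-1i/5-FU replicate 3 was the highest library of Slc40a1, Slc11a1, Fth1 and Ftl1.

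The design asks what KCL-HO-1i changes alone and beside each chemotherapy, and what chemotherapy changes alone. Each treatment was compared with vehicle, each combination with the chemotherapy it contains, and the 3 comparisons with and without KCL-HO-1i were averaged. A gene was called at an adjusted p under 0.05 (quasi-likelihood test of edgeR, adjusted over 13663 genes). Averaged over vehicle, 5-FU and gemcitabine backgrounds, KCL-HO-1i raised Slc40a1 and Slc11a1 and no other of the 10 genes passed, where 8 genes of all those tested were called (0.0586%). The other 9 comparisons called 0 of the 10 genes and 0 genes of all those tested (0%). Of the 10 genes, those with an unadjusted p under 0.05 against vehicle were 0 higher and 1 lower with 5-FU (1.65% and 2.24% of all genes), 0 and 0 with gemcitabine (2.05% and 1.78%), and 2 higher and 1 lower with KCL-HO-1i (7.36% and 2.08%). They were 3 higher and 2 lower with KCL-HO-1i/5-FU (9.79% and 7.84%) and 4 higher and 2 lower with KCL-HO-1i/gemcitabine (11.7% and 8.04%). Against their own chemotherapy they were 3 higher and 1 lower beside 5-FU (6.18% and 5.26%) and 4 higher and 1 lower beside gemcitabine (6.94% and 6.51%). In the average they were 4 higher and 2 lower (13.7% and 9.22%). The tests of whether the KCL-HO-1i effect changed with chemotherapy had 0 either way (4.03% and 4.51% of all genes for 5-FU, 0.644% and 0.695% for gemcitabine). On the same data DESeq2 called 1, 3 and 5 members against vehicle for the inhibitor alone, with 5-FU and with gemcitabine, and 1 for KCL-HO-1i/5-FU against 5-FU, and limma-voom called 2 with KCL-HO-1i/5-FU and 5 with KCL-HO-1i/gemcitabine against vehicle. In the average DESeq2 called 5 of the 10 genes and limma-voom 4. The shares of all genes that DESeq2 and limma-voom called are not given here. Their counts are therefore not read as a result about the iron genes.

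The study used wider limits, read here as a log2 fold change beyond 0.6 and an unadjusted p under 0.05. Under them KCL-HO-1i against vehicle held 2 of the 10 genes among the higher ones (Slc40a1 and Slc11a1), where the share of all genes was 6.59%, and none among the lower ones (0.329%). KCL-HO-1i/5-FU against vehicle held 3 higher, adding Fth1 (7.49% of all genes), and 1 lower, Tfrc (2.77%). KCL-HO-1i/gemcitabine against vehicle held 4 higher, adding Ftl1 (10.2%), and again Tfrc lower (1.62%). In the average, 3 of the 10 were higher (Slc40a1, Slc11a1 and Fth1; 9.24% of all genes) and 0 lower (0.571%). Against 5-FU, KCL-HO-1i/5-FU held 3 higher (Slc40a1, Slc11a1 and Fth1; 3.26%) and Tfrc lower (1.79%), and against gemcitabine KCL-HO-1i/gemcitabine held 4 higher, with Ftl1 (5.31%) and 0 lower (1.09%). The comparisons with vehicle share the vehicle libraries, so their agreement is not independent evidence. The median log2 fold change of the 10 genes in the average was 0.17, beside 0.00 (-0.00069) for all genes tested.

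**Figure D2:**
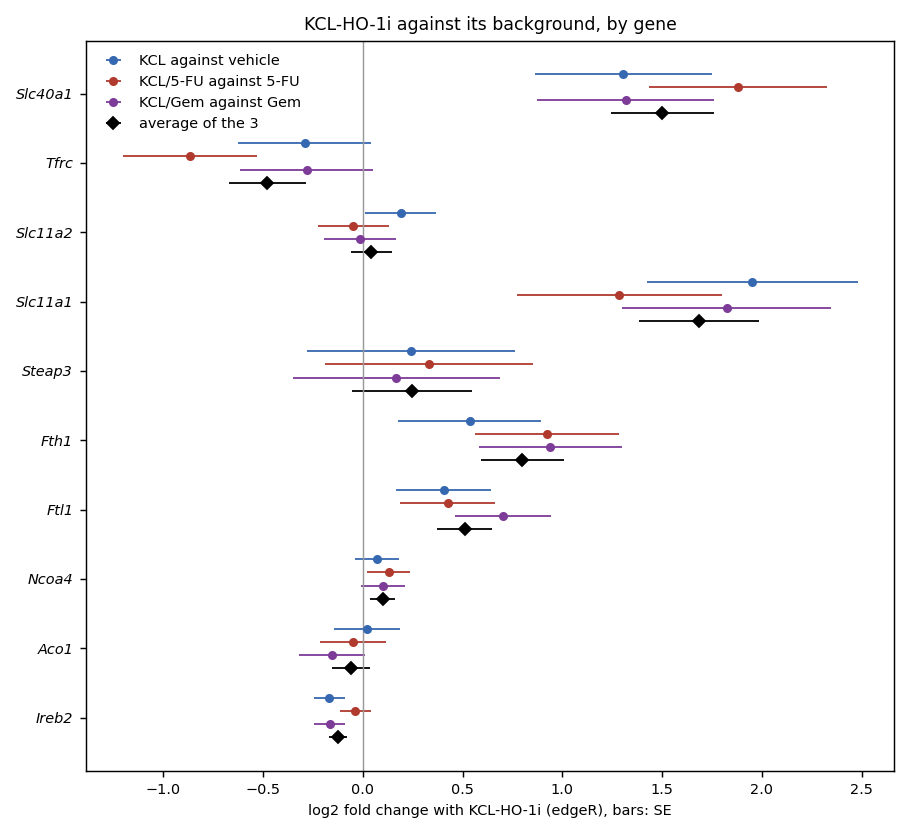
Log2 fold change with KCL-HO-1i for each iron gene (edgeR, bars are SE) against vehicle, against 5-FU, against gemcitabine and averaged over the 3. Slc40a1 (1.50) and Slc11a1 (1.69) lay farthest to the right in the average, Fth1 (0.80) and Ftl1 (0.51) less far, Tfrc was below 0 (-0.48), and the remaining 5 genes lay between -0.12 and 0.25.

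Slc40a1 makes ferroportin, the known iron exporter of mammalian cells. In vehicle tumors it stood at 15.8, 14.2, 8.18, 16.0 and 11.8 CPM in replicates 1 to 5. In KCL-HO-1i tumors it stood at 26.3, 25.4, 49.2, 42.2 and 20.2 CPM, each above every vehicle library. Groups that did not overlap in this direction were found for 0.747% of all genes in the same comparison. KCL-HO-1i/gemcitabine tumors lay close together, at 54.2, 35.0, 36.3, 43.1 and 40.5 CPM, above all 5 gemcitabine libraries (17.5, 20.1, 13.4, 10.8 and 22.3 CPM), a separation shared by 0.695% of all genes. KCL-HO-1i/5-FU tumors stood at 34.9, 40.7, 250, 45.9 and 24.3 CPM, where replicate 3 was more than 5 times the next highest, and 5-FU tumors at 19.5, 11.2, 26.8, 23.7 and 26.2 CPM. These groups overlapped, since replicate 5 of the combination lay below 2 of the 5-FU libraries. Against 5-FU, 0.937% of all genes were higher and 0.629% lower without overlap, and none of the 10 genes was in either set.

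Averaged over backgrounds, Slc40a1 was 2.83-fold higher with KCL-HO-1i (log2 fold change 1.50 ± 0.26, SE; adjusted p = 0.0149), and higher than the mean log2 CPM of its own background (the measure of all such counts here) in 15 of 15 libraries, a pattern shown by 69 of all genes tested (0.505%). The log2 fold change was 1.31 ± 0.44 against vehicle (adjusted p = 0.354), 1.88 ± 0.45 against 5-FU (adjusted p = 0.218) and 1.32 ± 0.44 against gemcitabine (adjusted p = 0.282). Against vehicle it was 2.58 ± 0.46 for KCL-HO-1i/5-FU (adjusted p = 0.0829) and 1.66 ± 0.45 for KCL-HO-1i/gemcitabine (adjusted p = 0.0828). Without KCL-HO-1i/5-FU replicate 3, the value against 5-FU was 0.76 and that of KCL-HO-1i/5-FU against vehicle 1.47, while the average stayed called at 1.13 (adjusted p = 0.00115). By mean log2 CPM the order of the groups went from vehicle through gemcitabine, 5-FU and KCL-HO-1i to the combination with gemcitabine and last that with 5-FU. Of the 5 steps in this order, those from 5-FU to KCL-HO-1i (0.58) and from there to the gemcitabine combination (0.42) were larger than the pooled SD of the groups on either side (0.53 and 0.42), the latter step only barely. The last place rests on replicate 3 of the 5-FU combination: without it that group's mean log2 CPM was 5.16, down from 5.72 and below the 5.37 of the gemcitabine combination.

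Tfrc makes the transferrin receptor, through which dividing cells in particular take up iron. Vehicle tumors stood at 106, 151, 433, 127 and 169 CPM, with replicate 3 far above the others. KCL-HO-1i/5-FU tumors were the lowest group, at 79.2, 52.9, 34.6, 73.9 and 73.6 CPM, all below every vehicle library. A gap of this direction was found for 2.07% of all genes. KCL-HO-1i alone left Tfrc between 124 and 224 CPM (median 155), within the vehicle range, and KCL-HO-1i/gemcitabine tumors ran from 67.5 to 187 CPM (median 87.8). The 5-FU libraries, at 162, 157, 96.6, 93.3 and 63.7 CPM, overlapped both vehicle and the combination.

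Against vehicle the log2 fold change of Tfrc was -1.65 ± 0.34 with KCL-HO-1i/5-FU (adjusted p = 0.0876), which is 3.14-fold lower and did not pass. It was -0.85 ± 0.34 with KCL-HO-1i/gemcitabine (adjusted p = 0.153), -0.78 ± 0.33 with 5-FU (adjusted p = 0.999), -0.57 ± 0.33 with gemcitabine (adjusted p = 0.941) and -0.29 ± 0.33 with KCL-HO-1i (adjusted p = 0.898). Vehicle replicate 3 carried much of this: without it the same 5 values were -1.15, -0.37, -0.28, -0.06 and 0.20. Against 5-FU, a comparison that does not use vehicle, KCL-HO-1i/5-FU gave -0.87 ± 0.34 (adjusted p = 0.354). In the average Tfrc stood at -0.48 ± 0.19 (adjusted p = 0.137), with 2 of 15 treated libraries above their background's mean. A code was cut from each library's label, as the part before the point, while the full labels all differed. It is called mouse code here, but the labels do not state its meaning or that libraries with 1 code share a mouse. With this code as a term, the direction of Tfrc turned, to 0.50 in the average. It was 0.20 for KCL-HO-1i and 0.21 for KCL-HO-1i/gemcitabine against vehicle, and 1.41 for KCL-HO-1i/gemcitabine against gemcitabine. Proliferation markers moved with Tfrc. In the average 0 of 8 were higher, 7 were lower at an unadjusted p under 0.05, 0 were called, and their median log2 fold change was -0.49. None was at 0 in any library. Their summed level was 673 to 1074 CPM in vehicle tumors, 296 to 941 with 5-FU, 710 to 1884 with gemcitabine, 653 to 994 with KCL-HO-1i, 262 to 827 with KCL-HO-1i/5-FU and 530 to 943 with KCL-HO-1i/gemcitabine. Their part in the Tfrc levels was not tested.

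Slc11a2 makes the divalent metal transporter that moves iron out of the endosome, and Steap3 the reductase that acts on iron there. Slc11a2 lay between 22.2 and 51.7 CPM in every library and its group means between 32.3 and 38.3 CPM, with no neighbors in their order apart by more than the pooled SD. Its log2 fold change in the average was 0.04, with a 95% interval from -0.17 to 0.26. Steap3 spread within every group, from 6.27 to 56.0 CPM in 5-FU tumors and from 15.8 to 87.4 CPM in KCL-HO-1i/gemcitabine tumors. Its log2 fold change in the average was 0.25 with a 95% interval from -0.37 to 0.86, so a change in either direction was not detectable at this spread. It was 0.42 without vehicle replicate 3 and 0.14 without replicate 2 of the gemcitabine combination, and below 0 with the macrophage score (-0.12) or the adipocyte score (-0.23) as a covariate.

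Slc11a1 makes a metal transporter of the phagosome membrane in macrophages and neutrophils and was the least abundant of the 10. Vehicle tumors stood at 2.54, 6.76, 1.23, 5.68 and 1.79 CPM. KCL-HO-1i tumors stood at 11.3, 13.9, 25.2, 13.3 and 6.19 CPM, of which 4 lay above every vehicle library. KCL-HO-1i/gemcitabine tumors, at 15.5, 20.5, 13.1, 16.3 and 20.7 CPM, all lay above the highest vehicle library and above the gemcitabine libraries (1.96, 3.51, 3.11, 4.35 and 11.4 CPM). KCL-HO-1i/5-FU tumors, at 8.82, 10.2, 39.1, 11.2 and 7.59 CPM, all lay above vehicle too but overlapped the 5-FU tumors, at 5.86, 4.30, 11.2, 3.01 and 7.11 CPM. Against vehicle, groups without overlap were found for 1.53% of all genes in the higher direction with KCL-HO-1i/5-FU and 2.2% with KCL-HO-1i/gemcitabine.

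In the average Slc11a1 was 3.22-fold higher with KCL-HO-1i (log2 fold change 1.69 ± 0.30; adjusted p = 0.0213), in 15 of 15 libraries. By background the log2 fold change was 1.95 ± 0.53 against vehicle (adjusted p = 0.333), 1.29 ± 0.51 against 5-FU (adjusted p = 0.359) and 1.82 ± 0.52 against gemcitabine (adjusted p = 0.282). Against vehicle it was 2.09 ± 0.53 for KCL-HO-1i/5-FU (adjusted p = 0.119) and 2.25 ± 0.53 for KCL-HO-1i/gemcitabine (adjusted p = 0.0822). The average was called in 27 of the 30 fits that left out 1 library, and the adjusted p reached 0.0585 in the others, which were without vehicle replicate 5, 5-FU replicate 1 or KCL-HO-1i replicate 3. Dropping replicate 3 of the 5-FU combination gave 0.59 against 5-FU, 1.39 for that combination against vehicle and 1.45 in the average.

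Macrophage markers moved with both called genes. All 14 markers on the list were higher with KCL-HO-1i in the average, 11 at an unadjusted p under 0.05 and 0 at the adjusted threshold, with a median log2 fold change of 0.78. Their summed level was 123 to 519 CPM in vehicle tumors, 298 to 783 with 5-FU, 188 to 894 with gemcitabine, 461 to 1002 with KCL-HO-1i, 502 to 1177 with KCL-HO-1i/5-FU and 599 to 1013 with KCL-HO-1i/gemcitabine. Of the defining markers Cd163 and Lyve1 were at 0 in at least 1 library. A second list, of macrophages that recycle red-cell iron, was higher for 6 of 6 markers, 5 at an unadjusted p under 0.05, with a median of 1.74. Spic, the transcription factor of those macrophages, was the 1 marker called, at a very low level (1.93 ± 2.07 CPM, SD, n = 5, in KCL-HO-1i/5-FU tumors and 0.0339 ± 0.0759 in vehicle tumors, where most libraries had none), and Cd5l, Timd4 and Marco were also at 0 in some library. The summed level of this list was 13.8 to 63.18 CPM in vehicle tumors, 25.2 to 66.7 with 5-FU, 20.9 to 101.0 with gemcitabine, 51.0 to 115 with KCL-HO-1i, 40.9 to 299 with KCL-HO-1i/5-FU and 88.6 to 162 with KCL-HO-1i/gemcitabine. The part of either list in the levels of Slc40a1 and Slc11a1 was not tested beyond the fits with a marker score described next.

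With the macrophage score (the mean log2 CPM of the 14 markers) as a covariate, the average log2 fold change was 0.98 ± 0.28 for Slc40a1 (adjusted p = 0.97) and 0.94 ± 0.19 for Slc11a1 (adjusted p = 0.264). Neither was called, though both values stayed above 0. An adjusted p also depends on the other genes in the fit, and the share of all genes called in it is not given here. With an adipocyte score the values of Slc40a1 and Slc11a1 were 1.23 and 1.35 (adjusted p = 0.142 for both). A score of luminal epithelium, the tumor's cell of origin, gave 1.33 (adjusted p = 0.0341) and 1.60 (adjusted p = 0.0545). With the mouse code as a term the values were 0.98 ± 0.49 (adjusted p = 0.5) and 2.16 ± 0.56 (adjusted p = 0.412). The 13 codes were spread unevenly over the groups, with 7 of the 10 libraries of chemotherapy alone under 1 code and 1 code shared between vehicle and any other group, so code and treatment cannot be told apart here.

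**Figure D3:**
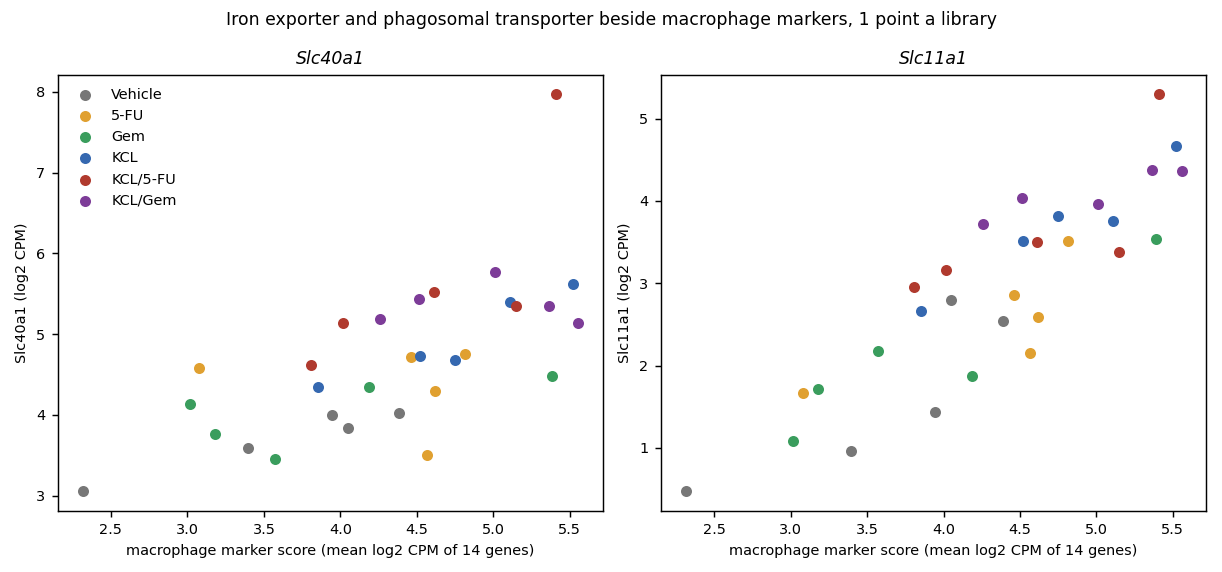
Log2 CPM of Slc40a1 (left) and Slc11a1 (right) against the macrophage marker score, the mean log2 CPM of 14 genes, with 1 point for each of 30 libraries colored by group. Both genes were higher in libraries with a higher score, the lowest score (2.31) belonged to vehicle replicate 3, and KCL-HO-1i/5-FU replicate 3 lay above the rest in both panels.

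The ferritin chains were the most abundant of these mRNAs. Fth1, the heavy chain, which oxidizes iron for storage, stood at 2389, 1714, 1880, 1204 and 1386 CPM in vehicle tumors. It stood at 1880, 2631, 3430, 2393 and 2099 CPM with KCL-HO-1i, overlapping vehicle. With KCL-HO-1i/gemcitabine it stood at 2791, 4480, 6527, 2521 and 3748 CPM, all above the highest vehicle library. A separation in this direction was found for 2.2% of all genes in that comparison. With KCL-HO-1i/5-FU the libraries ran from 1281 to 7982 CPM around a median of 2536, and replicate 3 was the highest of all 30. The lowest of all 30 was 5-FU replicate 4 at 734 CPM.

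Fth1 was 1.74-fold higher in the average (log2 fold change 0.80 ± 0.21), with an adjusted p of 0.0525 that missed the threshold, and 14 of 15 treated libraries lay above their background's mean. The share of all genes with 14 of 15 was not counted, here or for Ftl1 and Steap4 below. Against vehicle the log2 fold change was 0.54 ± 0.36 with KCL-HO-1i (adjusted p = 0.726), 0.96 ± 0.36 with KCL-HO-1i/5-FU (adjusted p = 0.179) and 1.23 ± 0.36 with KCL-HO-1i/gemcitabine (adjusted p = 0.0916). Without KCL-HO-1i/5-FU replicate 3 its value in KCL-HO-1i/5-FU against vehicle was 0.35 and against 5-FU 0.31, down from 0.92. With the mouse code as a term the value of KCL-HO-1i against vehicle was -0.23.

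Ftl1, the light chain, which helps the mineral core to form, stood at 1308, 1238, 1253, 967 and 1088 CPM in vehicle tumors. With KCL-HO-1i/gemcitabine it stood at 1996, 2432, 1478, 1678 and 2026 CPM, again without overlap (2.2% of all genes in this direction). Its range was 1256 to 2224 CPM with KCL-HO-1i and 1062 to 2927 CPM with KCL-HO-1i/5-FU, both overlapping vehicle. In the average it was 1.43-fold higher (log2 fold change 0.51 ± 0.14), higher in 14 of 15 libraries, and its adjusted p of 0.0548 missed the threshold too. Against vehicle the largest value was 0.72 ± 0.24 with KCL-HO-1i/gemcitabine (adjusted p = 0.107).

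The balance of the mRNAs of the 2 chains varied more between tumors than between groups. The difference of log2 CPM, heavy minus light, averaged 0.52 ± 0.22 (SD, n = 5) in vehicle tumors, 0.46 ± 0.55 with 5-FU, 0.86 ± 0.34 with gemcitabine, 0.68 ± 0.10 with KCL-HO-1i, 0.85 ± 0.42 with KCL-HO-1i/5-FU and 1.00 ± 0.67 with KCL-HO-1i/gemcitabine. On this scale, which is not corrected for transcript length, a single tumor, 5-FU replicate 4, had more Ftl1 than Fth1 (-0.45). KCL-HO-1i/gemcitabine replicate 3 had the largest excess of Fth1 (2.14). Per kilobase of the principal transcript, the vehicle mean was slightly higher for Ftl1 (1210) than for Fth1 (1148). That order depends on the transcript chosen (968 bases for Ftl1 and 1494 for Fth1), and other transcripts were not tried.

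Ncoa4 makes the receptor that delivers ferritin to the lysosome so that its iron is released. It was among the steadiest genes, with group means from 129 ± 6.52 CPM (SD, n = 5) with 5-FU to 149 ± 11.0 CPM with KCL-HO-1i/gemcitabine and 134 ± 8.09 CPM with vehicle. Its log2 fold change in the average was 0.10, with a 95% interval from -0.03 to 0.23, and 0.05 without KCL-HO-1i replicate 4.

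Aco1 makes iron-regulatory protein 1, which is also the cytosolic aconitase, and Ireb2 makes iron-regulatory protein 2. Aco1 averaged 160 ± 17.3 CPM in vehicle tumors and between 135 and 165 CPM in the other groups, with a log2 fold change of -0.06 in the average (95% interval -0.26 to 0.14), which was 0.25 with the mouse code as a term and -0.10 without KCL-HO-1i replicate 4. Ireb2 had the smallest spread of the 10. It stood at 132, 130, 171, 137 and 141 CPM in vehicle tumors and at 125, 117, 117, 111 and 121 CPM with KCL-HO-1i/gemcitabine, all below every vehicle library, where 1.84% of all genes were separated in this direction. The difference was small, a log2 fold change of -0.27 ± 0.08 (adjusted p = 0.0869). In the average Ireb2 was 1.09-fold lower (log2 fold change -0.12 ± 0.04; adjusted p = 0.102), with 2 of 15 treated libraries above their background's mean.

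Chemotherapy alone moved none of the 10 genes past the adjusted threshold, and no group of 5 stood clear of vehicle for any of them (0.315% of all genes higher and 0.366% lower without overlap with 5-FU, 0.198% and 0.161% with gemcitabine). With 5-FU the limits of the study held 1 of them, Tfrc, among the lower genes (0.468% of all genes) and 0 among the higher ones (1.19%), and with gemcitabine 0 in either direction (0.71% of all genes higher and 0.505% lower). Slc40a1 had a log2 fold change of 0.70 ± 0.44 with 5-FU (adjusted p = 0.999) and 0.35 ± 0.44 with gemcitabine (adjusted p = 0.948), and Slc11a1 0.80 ± 0.52 (adjusted p = 0.999) and 0.43 ± 0.52 (adjusted p = 0.945). The value of Slc11a1 with gemcitabine was -0.15 without replicate 5 of that group and 0.77 without vehicle replicate 2, and with 5-FU it was 0.49 without 5-FU replicate 3. For Slc40a1 with gemcitabine it was 0.21 without vehicle replicate 3.

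Whether chemotherapy changed the effect of KCL-HO-1i was tested directly. For Slc40a1 the effect beside 5-FU minus that beside vehicle was 0.58 on the log2 scale, with a 95% interval from -0.69 to 1.84, and beside gemcitabine 0.01 with an interval from -1.27 to 1.30. For Slc11a1 these differences were -0.67 (-2.15 to 0.81) and -0.13 (-1.60 to 1.35), and for Tfrc -0.58 (-1.54 to 0.39) and 0.01 (-0.96 to 0.98). These differences rest on single tumors. Without replicate 3 of the 5-FU combination the difference beside 5-FU was -0.54 for Slc40a1, the opposite direction, and -1.37 for Slc11a1. Without vehicle replicate 3 the Tfrc differences were -1.07 beside 5-FU and -0.52 beside gemcitabine, and without gemcitabine replicate 5 the Slc11a1 difference beside gemcitabine was 0.44. With all libraries no adjusted p of the 10 genes was below 0.733 beside 5-FU, and each was 1 beside gemcitabine. Under the limits of the study 0 of the 10 passed in either direction in either test, where the shares of all genes were 2.17% higher and 3.32% lower beside 5-FU and 0.417% higher and 0.461% lower beside gemcitabine. The intervals are wide. Beside gemcitabine, those of Slc40a1 and Slc11a1 held a 2-fold difference between backgrounds in either direction, and that of Tfrc ended just short of it. Beside 5-FU, a 2-fold stronger effect lay within the interval of Slc40a1. There a 2-fold difference in the lower direction lay within the intervals of Slc11a1 and Tfrc. In these cases a 2-fold difference could not be told from an equal effect.

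Hmox1, which makes the enzyme that KCL-HO-1i inhibits, was read beside the iron genes. It was 5.36-fold higher in the average (log2 fold change 2.42 ± 0.38; adjusted p = 0.0113), and 15 of 15 libraries exceeded the mean log2 CPM of their background. On the CPM scale KCL-HO-1i replicate 5, at 47.8, lay below the vehicle mean of 49.4 and within the vehicle range. The highest Hmox1 library, KCL-HO-1i/5-FU replicate 3 at 1198 CPM, was also the highest for Slc40a1, Slc11a1, Fth1 and Ftl1, and the lowest of all for Tfrc. That tumor had the highest iron-recycling macrophage score (3.60) and the highest neutrophil score (3.01) of the 30. Its endothelium (5.43) and fibroblast (8.88) scores were the second highest, and its macrophage score of 5.41 was not the highest. Its luminal epithelium score of 8.35 was the second lowest.

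A wider list of 43 iron gene symbols covered transferrin, hepcidin and its control, ceruloplasmin, mitochondrial import and siderophore binding. It held 41 symbols of the table. The rest, Hfe2 and Fam132b, are older names of Hjv and Erfe, which the list also holds. Of the 41, 36 were tested and 5 (Tfr2, Hamp, Hamp2, Tmprss6 and Ftmt) had too few counts. In the average 0 of the 36 were called, 8 were higher and 3 lower at an unadjusted p under 0.05, beside 13.7% and 9.22% of all genes, and their median log2 fold change was 0.02. Steap4, a metal reductase at the cell surface, came closest at 0.83 ± 0.22 (adjusted p = 0.0526; 14 of 15 libraries higher than the mean of their background), with 206 CPM on average over the 15 tumors given KCL-HO-1i, combinations included, and 115 over the other 15. Other genes of this list also had 14 of 15, at an unadjusted p as high as 0.227 in the edgeR test. Slc39a14, a zinc transporter that also carries free iron into cells, stood at 0.50 ± 0.17 (adjusted p = 0.092), Bmp6, which signals for hepcidin, at 1.22 ± 0.42 (adjusted p = 0.0948), and Hfe, a partner of the transferrin receptors, at 0.44 ± 0.17 (adjusted p = 0.132). Slc39a8, a relative of Slc39a14, was the lower one of the 6 with the smallest p, at -0.96 ± 0.41 (adjusted p = 0.161). It was -0.46 without 5-FU replicate 4, and by background -2.59 against 5-FU, -0.40 against vehicle and 0.10 against gemcitabine. Hjv, a co-receptor in the signaling of Bmp6 to hepcidin, is expressed in skeletal muscle. It stood at 4.09 ± 1.24 (adjusted p = 0.0669) from a level near 0, with all vehicle libraries at 0. The fold therefore depends on the prior count. The log2 fold change of Hjv was 2.44 without replicate 2 of the gemcitabine combination, and against 5-FU alone the direction was the opposite (-1.16). Skeletal muscle markers moved with Hjv: 8 of 8 were higher in the average, with a median log2 fold change of 3.28, and their summed level was 6.77 to 42.8 CPM in vehicle tumors, 4.97 to 184 with 5-FU, 7.15 to 192 with gemcitabine, 20.9 to 3583 with KCL-HO-1i, 9.16 to 50.2 with KCL-HO-1i/5-FU and 8.23 to 10554 with KCL-HO-1i/gemcitabine. All but Mb of that list were at 0 in some library, and the part of the muscle markers in the Hjv value was not tested.

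To place the members among all genes, the 3 genes with the highest Pearson r of log2 CPM over the 30 libraries were taken for 4 of them, as a description, since all points share the libraries, their cell makeup and their groups. For Slc40a1 these were Clec4n (r = 0.90), Lgmn (0.84) and Sesn1 (0.84). For Slc11a1 they were Tbxas1 (0.95), Hpgds (0.94) and Fermt3 (0.93). For Tfrc they were Prkar2a (0.91), Slc7a1 (0.86) and Naa50 (0.86), and for Fth1 Pdpn, Ap1s2 and Prss23 (0.81 each). After each group's mean was taken off, r was 0.82 for Clec4n with Slc40a1, 0.88 for Tbxas1 with Slc11a1, 0.90 for Prkar2a with Tfrc and 0.76 for Pdpn with Fth1. Ranked in this way, however, other genes took most of the 3 places for 3 of the 4 members. In the average none of the 12 genes was called, with adjusted p from 0.052 for Tbxas1 and Hpgds to 0.369 for Naa50.

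Other markers bear on all of these tumors. In the average, markers of endothelium (6 of 6), adipocytes (8 of 8), fibroblasts (6 of 6) and neutrophils (5 of 5 tested) were higher with KCL-HO-1i and 0 were called, whereas 1 of 6 luminal epithelium markers and 0 of 5 erythroid markers tested were higher. At an unadjusted p under 0.05, 4, 8, 6 and 3 of the first 4 lists were higher. Their median log2 fold changes were 0.72, 2.31, 1.57 and 0.94, so adipocyte and fibroblast markers moved farther than macrophage markers (0.78). The medians of luminal epithelium and erythroid markers were -0.15 and -0.51. Luminal epithelium markers, which define the labelled tissue, were at 0 in no library, and their summed level was 2291 CPM or more in each. Neutrophils also express Slc11a1. Their markers summed to 8.93 to 70.4 CPM with vehicle, 4.81 to 42.3 with 5-FU, 8.30 to 126 with gemcitabine, 11.6 to 69.3 with KCL-HO-1i, 16.5 to 86.1 with KCL-HO-1i/5-FU and 16.7 to 54.7 with KCL-HO-1i/gemcitabine, and Ly6g, Cxcr2, Retnlg, Mmp8 and Ngp among them were at 0 in some library. The parts of these cell types in the levels of the iron genes were not tested beyond the covariates above.

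**Figure D4:**
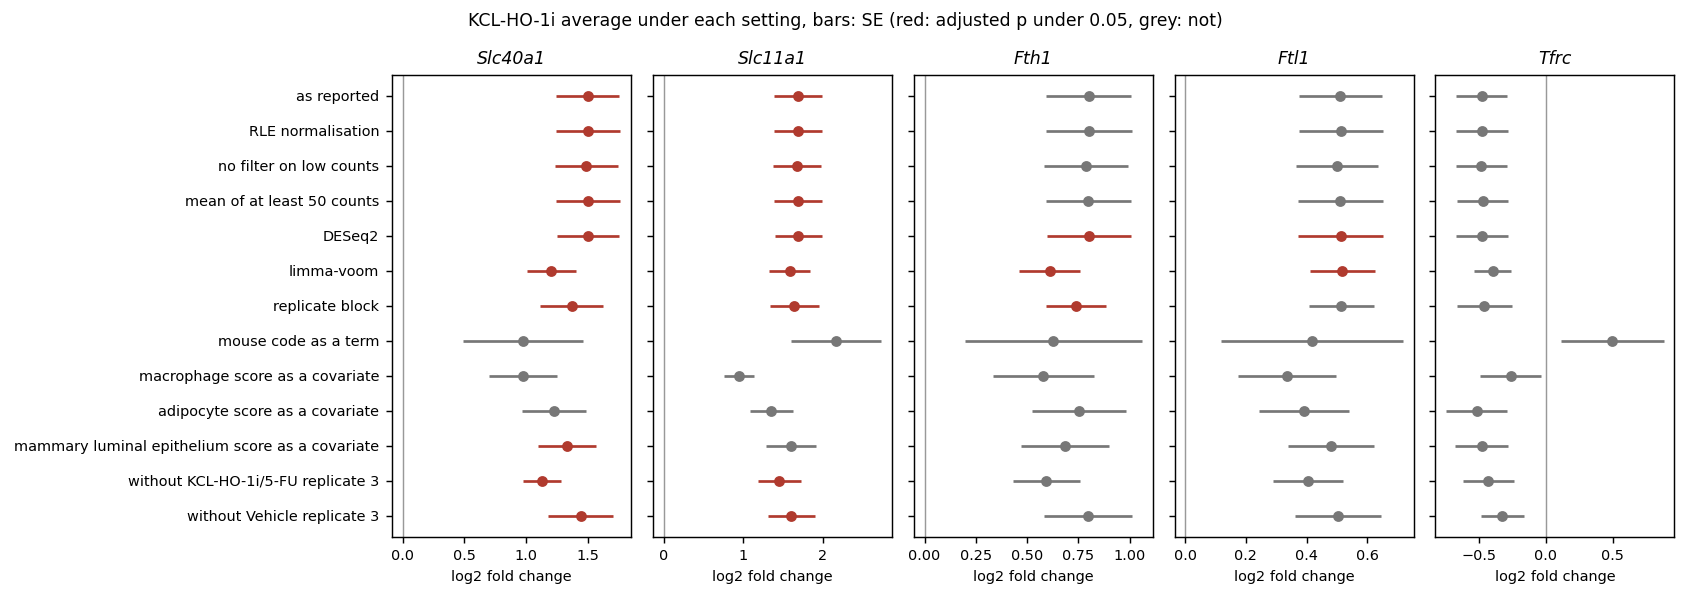
Log2 fold change in the average over KCL-HO-1i backgrounds (bars are SE) of Slc40a1, Slc11a1, Fth1, Ftl1 and Tfrc under 13 settings, red where the adjusted p was under 0.05 and grey where not. Slc40a1 and Slc11a1 stayed above 0 in every setting shown, and neither was called with the mouse code, the macrophage score or the adipocyte score in the fit, whereas Tfrc lay above 0 with the mouse code (0.50).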

How the data were processed

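Total RNA of 30 mouse mammary tumors was sequenced after stranded library preparation. Per the submitters' processing notes, the authors used FastQC 0.11.9, STAR 2.7.9a, Salmon 1.9.0 and build mm10, and per the study's methods transcripts were summed to genes with tximport. The deposited values are expected counts (estimated reads per gene). The methods speak of TPM, but library totals differed and 54.9% of the values above 0 were not whole. Counts were rounded and genes filtered with filterByExpr (minimum count 10). The edgeR 4.0.16 quasi-likelihood fit (TMM, robust, 6 group means, R 4.3.3) was run on all 30 libraries for 10 contrasts, with Benjamini-Hochberg adjustment, two-sided. The study's methods use DESeq2. Here DESeq2 1.42.0 and voom of limma 3.58.1 were alternatives. CPM used TMM-scaled library sizes, and log2 CPM a prior count of 2. Common BCV (biological coefficient of variation) was 0.401. The script was tested on simulated counts.

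Groups came from the labels, and each library is a tumor of a separate mouse per the study. Of 60 library pairs within groups none looked like a repeat (lowest chi-square per degree of freedom 19.9). Replicate numbers did not pair the samples. Genes named were the 10 members, Hmox1, the 3 genes most like 4 of the members, and of the wider list any called and the 6 with the smallest p in the average. Spic was named after its values were seen. The members and lists were chosen with earlier results of these data known. Alternatives were another normalization, other filters, other tools, a replicate block, the mouse code or a marker score in the fit, the compared groups alone, and each library left out. Hairpins were searched in the GENCODE M21 transcripts of GRCm38, which is mm10. Count-based precision covers counting error only.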

Additional observations from a re-analysis of the deposited data

Results flagged for a closer look

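In 10 of 60 sets of 5 libraries (10 genes in 6 groups) the highest library stood apart from the others by Dixon's test. By chance this test flags about 1 in 20 sets of independent, normally distributed values. The CPM were not put on a log scale and the sets share libraries, so that rate is no reference for the 10 flagged sets. KCL-HO-1i/5-FU replicate 3 gave 4 of them: Slc40a1 at 250 CPM against 24.3 to 45.9 in the other 4 libraries, Slc11a1 at 39.1 against 7.59 to 11.2, Fth1 at 7982 against 1281 to 2668, and Ftl1 at 2927 against 1062 to 1457. Vehicle replicate 3 gave 3: Tfrc at 433 CPM against 106 to 169, Steap3 at 90.5 against 18.5 to 34.2, and Ireb2 at 171 against 130 to 141. This library also had the lowest macrophage score of all, 2.31. Gemcitabine replicate 5 was high for Slc11a1 (11.4 CPM against 1.96 to 4.35), with a macrophage score of 5.39. Ncoa4 was high in vehicle replicate 4 (148 CPM against 128 to 133) and in KCL-HO-1i replicate 4 (196 against 122 to 132). The cause of these values was not tested.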

How the results depend on the processing

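Directions and calls were read under each alternative, and the cause of each change was not tested. Counts of genes under an alternative are given without the share of all genes in the same fit. They describe how calls moved and are not read as a result about the iron genes. Normalization by RLE, testing every gene, testing genes with a mean count of 50 or more, and fitting the compared groups alone changed no call of these genes. DESeq2 called 1 of the 10 genes with KCL-HO-1i, 3 with KCL-HO-1i/5-FU and 5 with KCL-HO-1i/gemcitabine against vehicle, 5 in the average and 1 in KCL-HO-1i/5-FU against 5-FU, and of the wider list 1, 3, 4 and 1 in the last 4 of these comparisons. With limma-voom 2, 5 and 4 were called with KCL-HO-1i/5-FU, with KCL-HO-1i/gemcitabine and in the average, and 0, 2 and 2 passed the limits of the study with 5-FU, in KCL-HO-1i/5-FU against 5-FU and in the interaction with 5-FU. Members called in the average were 0 with the mouse code, the macrophage score or the adipocyte score, and 1 with the luminal epithelium score.

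Members past the limits of the study with the mouse code were 0 with 5-FU, 1 with KCL-HO-1i, 2 with KCL-HO-1i/5-FU, 1 with KCL-HO-1i/gemcitabine, 1 in the average, 1 against 5-FU and 0 against gemcitabine. With the macrophage score they were 0 with 5-FU, 1 with KCL-HO-1i, 3 with KCL-HO-1i/gemcitabine and 1 against gemcitabine, with the adipocyte score 1 with KCL-HO-1i, and with the luminal epithelium score 2 against 5-FU. Log2 fold changes that turned with the mouse code were Tfrc 0.20, Fth1 -0.23 and Ireb2 0.0051 with KCL-HO-1i, Ireb2 0.015 with KCL-HO-1i/5-FU, Tfrc 0.21 with KCL-HO-1i/gemcitabine, Tfrc 0.50 and Aco1 0.25 in the average, and Tfrc 1.41 in KCL-HO-1i/gemcitabine against gemcitabine. With the macrophage score they were Tfrc 0.054 with KCL-HO-1i and 0.0069 against gemcitabine, and in the average Slc11a2 -0.038, Steap3 -0.12 and Ncoa4 -0.0063. With the adipocyte score Slc11a2 was -0.070 and Steap3 -0.23 in the average.

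The differences of the KCL-HO-1i effect between backgrounds, none of them called, turned more often. Beside gemcitabine, where both stood at 0.01, Slc40a1 was -0.0065, -0.0077, -0.0083 and -0.0077 and Tfrc -0.013, -0.030, -0.028 and -0.013 with RLE, every gene tested, a mean count of 50 or more and DESeq2, and Tfrc was -0.21 with limma-voom and -0.047 with the macrophage score. Slc11a1 turned to 0.090 with the macrophage score and 0.28 with the adipocyte score, and Slc40a1 to -0.0010 with the luminal epithelium score and -1.53 with the mouse code. Beside 5-FU Slc40a1 was -0.18 with the mouse code. With each library left out, the range was -0.54 to 0.81 for Slc40a1 beside 5-FU, and beside gemcitabine -0.12 to 0.20 for Slc40a1, -0.48 to 0.44 for Slc11a1 and -0.52 to 0.17 for Tfrc.

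With each library left out in turn, Slc40a1 was called in the average in 30 of 30 fits (log2 fold change 1.13 to 1.58) and Slc11a1 in 27 (1.45 to 1.86), while Fth1 and Ftl1 were each called in 7 of 30. Members called ran from 1 to 5 in the average (5, with Fth1, Ftl1 and Ireb2, without gemcitabine replicate 5 or replicate 4 of the 5-FU combination), 0 to 3 with KCL-HO-1i/5-FU (3 without its replicate 4) and 0 to 3 with KCL-HO-1i/gemcitabine (3 without replicate 3 of the 5-FU combination). Members past the limits of the study ran from 0 to 2 with 5-FU, 0 to 1 with gemcitabine, 3 to 4 with KCL-HO-1i/5-FU, 4 to 5 with KCL-HO-1i/gemcitabine, 2 to 3 in the average, 1 to 4 against 5-FU (lowest without replicate 3 of the combination), 3 to 4 against gemcitabine and 0 to 1 in the interaction with 5-FU. Wider iron genes called in the average ran from 0 to 2, both found without gemcitabine replicate 5. How many of all genes passed in each of these fits is not given, so a higher count may not be particular to the iron genes. Values turned for Slc11a2 in the average (-0.024 to 0.084), Slc11a1 with gemcitabine (-0.15 to 0.77) and Tfrc with KCL-HO-1i (-0.45 to 0.20).

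Replicate numbers did not pair the libraries: same-numbered libraries of different groups had a mean correlation of deviations of 0.00284 over 75 pairs, and 5 of 30 libraries correlated best with their own number. With the replicate block the average was 1.37 for Slc40a1 and 1.64 for Slc11a1 (adjusted p = 0.0476 for both) and Fth1 was called too (0.74, adjusted p = 0.0498), so that 3 members passed. The block turned the differences beside gemcitabine of Slc11a1 (0.020) and Tfrc (-0.031).

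The 3 genes most like a member changed with the measure: by Spearman rho 0 of 3 were shared for Slc40a1 and Fth1 and 1 for Tfrc. With each group's mean taken off, most of the list changed for 3 members and most of it stayed for 1. Depth limited Slc11a1, with as few as 14 counts in a library.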
